A study of Mus musculus with 40 samples.

Results

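The tumor mRNA levels of 8 genes, grouped here as monocyte chemokines and receptors, were followed across the 8 antibody groups of the study. They were the CC chemokine ligands Ccl2, Ccl7, Ccl8 and Ccl12, the chemokine receptors Ccr1 and Ccr2, the growth factor gene Csf1, and Csf2rb, a cytokine receptor subunit. The genes were chosen by symbol, as 8 of the 54087 genes in the count table, and all 8 were among the 14760 genes with enough counts to be tested. BALB/c mice, 6 to 12 weeks old in the study's methods, received 1000000 CT26 cells subcutaneously. CT26 is a colon carcinoma line of that strain. Epithelial genes, keratins and a cadherin among them, had a summed level of 5 genes between 5.08 and 91.6 CPM (counts scaled to library size by TMM) in every tumor except 1 at 235 and 1 at 500.1. Whether this sum follows the carcinoma cells was not tested. Monoclonal antibodies (mAbs) were injected intraperitoneally on days 6, 9 and 12, tumors were taken on day 13, and each group had 5 mice.

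The isotype control was motavizumab, a mouse IgG2a without a target in these mice. Anti-GARP:TGF-β1 clone 58A2, which blocks the release of active TGF-β1 from the GARP complex of regulatory T cells, was given as WT mIgG2a or as FcD, an Fc-dead form that cannot bind Fcγ receptors. Anti-PD-1 FcS carries an Fc-silent backbone, and anti-TGF-β clone 1D11 neutralizes TGF-β itself. These 4 antibodies were given alone, and anti-PD-1 FcS was also combined with each of the other 3, here called the WT combination, the FcD combination and the anti-TGF-β combination. All mice carried a transplanted line, so tumor RNA mixes cancer cells, stroma and leukocytes. In such bulk samples, fewer cells of a type and less RNA per cell cannot be told apart.

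CC chemokines are small secreted proteins that guide leukocytes through G protein-coupled receptors. Ccl2, Ccl7 and Ccl12 are ligands of Ccr2, the receptor that Ly6C-high monocytes use to leave the bone marrow and enter inflamed tissue or tumors, and Ccl7 also acts on Ccr1. Csf1 is the main survival factor of macrophages, while the granulocyte-macrophage factor, interleukin 3 and interleukin 5 signal through the common β chain that Csf2rb encodes.

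The 4 ligand genes lie on chromosome 11 of GRCm38, all on the plus strand, within 81.2 kb from 82035571 (start of Ccl2) to 82116799 (end of Ccl8). Ccr1 (chromosome 9, 123962124 to 123968692, minus strand) and Ccr2 (124101950 to 124113557, plus strand) lie on either side of Ccr3. Csf1 lies on chromosome 3 (107741048 to 107760469, minus strand) and Csf2rb on chromosome 15 (78325752 to 78353847, plus strand). Upstream sequences were at hand for 5 of the 8 genes (Ccl8, Ccl12, Ccr1, Ccr2 and Csf1, RefSeq, GRCm38.p6). The 250 bases before the start of the neighbours Ccl12 (chr11:82101595-82101844, plus strand) and Ccl8 (chr11:82114935-82115184, plus strand) are shown because these adjacent ligands did not run parallel over the 40 tumors (r = -0.11 in log2 level). The TATA box is in capitals.
Ccl12: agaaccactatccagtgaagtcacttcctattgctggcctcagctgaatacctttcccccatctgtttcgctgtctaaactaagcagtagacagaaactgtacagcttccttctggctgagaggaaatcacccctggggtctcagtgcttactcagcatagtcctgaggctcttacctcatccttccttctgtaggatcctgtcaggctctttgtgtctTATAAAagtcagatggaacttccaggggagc
Ccl8: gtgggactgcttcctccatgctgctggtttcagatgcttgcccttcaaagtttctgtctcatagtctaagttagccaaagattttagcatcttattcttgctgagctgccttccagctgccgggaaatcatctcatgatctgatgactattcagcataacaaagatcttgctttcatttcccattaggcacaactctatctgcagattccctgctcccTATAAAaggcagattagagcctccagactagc
The letters TATAAA begin 31 bases before the start of Ccl12 and 32 bases before that of Ccl8, and they occur on either strand in 12.4% of 32851 promoter windows of the same length. Neither window holds AP-1 (TGANTCA, 6.75% of windows), GAS (TTCNNNGAA, 7.02%), CCAAT (33.8%) or kappaB (GGGNNNNNCC, 45.8%) letters on either strand. A match or its absence describes only these letters, and both windows hold the same one of the 5 motifs searched.

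Library totals ran from 11931730 to 20680548 counts, with a median of 14030511, and each of the 8 genes had at least 264 counts in every tumor. The libraries were numbered 41 to 80, and numbers 41 to 60 and 61 to 80 differed throughout: Ddx3y, a Y-linked gene, was at 6.86 CPM or more in the first part and at 0 in the second, while Xist was at 62.7 CPM or more in the second and at most 0.428 in the first. Each group had 2 or 3 mice in each part. Library 77 (WT combination) stood apart by a summed level of 5 pan-leukocyte genes of 3218 CPM. Library 48 (anti-TGF-β) was second at 1535 CPM, close above library 44 (FcD combination) at 1400, and the other tumors went down to 414 CPM. Values without library 77 or library 48 follow the results that they move most. Csf2rb shares 12.3% of its 50-base stretches with its paralog Csf2rb2, and how the authors' counting treated reads from such stretches is not given, so its counts are uncertain. Ccr2 shares 1.91%, and the other 6 genes share none with any other gene.

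In the isotype control tumors, the ligand transcripts were the most abundant per transcript length. Ccl2 was first at 227 ± 32.9 CPM per kb (SD, n = 5), followed by Ccl8 at 170 ± 119, Ccl12 at 90.5 ± 14.6 and Ccl7 at 77.1 ± 7.89, and each of these overlapped the next in this order. Csf1 at 56.4 ± 8.60 CPM per kb lay below all Ccl7 values. Ccr1 (22.3 ± 3.09) and Ccr2 (16.5 ± 3.38) overlapped each other, and Csf2rb was lowest at 5.37 ± 0.724 CPM per kb. Spread between mice also differed. Over the 40 tumors Ccl8 had a coefficient of variation of 84.6% and a 30.6-fold range in CPM, whereas Csf1 had 11.8% and 2.29-fold.

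**Figure D1:**
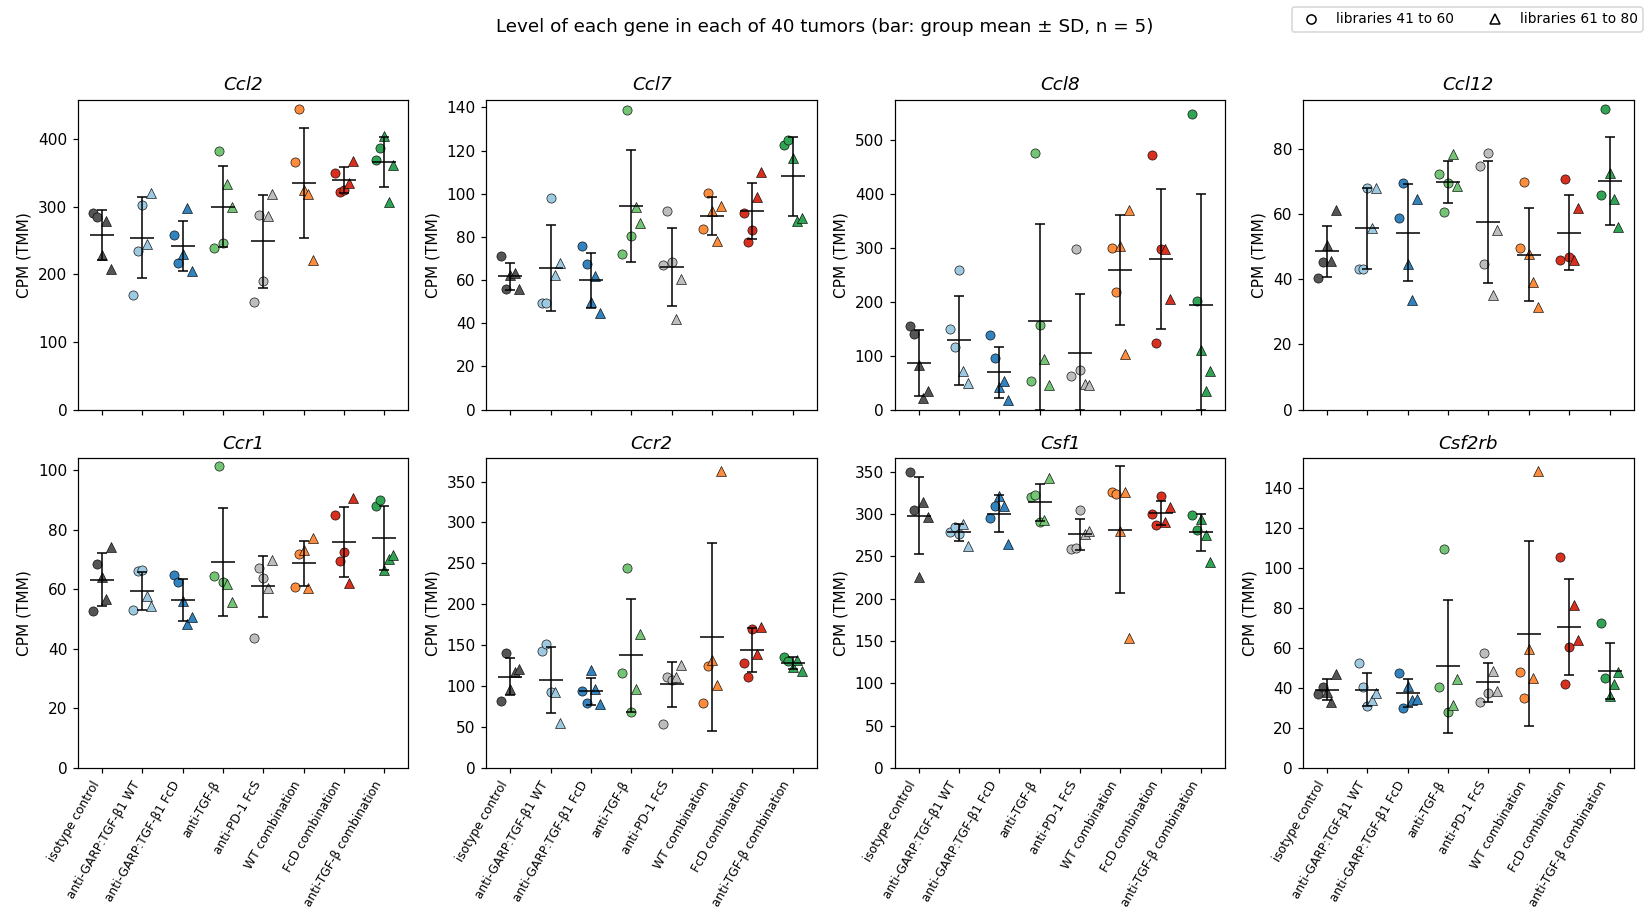
TMM-scaled CPM of the 8 genes in each tumor, by group, with circles for libraries 41 to 60 and triangles for libraries 61 to 80; bars give the group mean ± SD of 5 mice, cut at 0 where the SD exceeds the mean. Ccl2 and Ccl7 are high in the 3 combination groups, and Ccl7 also with anti-TGF-β alone (mean 94.3 CPM). Ccl8 spreads widely within groups, and single tumors at 363 CPM (Ccr2) and 149 CPM (Csf2rb) stand far above the rest of the WT combination.

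No gene of the 8 reached an adjusted p under 0.05 in any of the 14 contrasts (edgeR quasi-likelihood test, Benjamini-Hochberg over all 14760 genes), nor did other genes in 13 of them: the percentage of all genes called was 0 in those and 0.00678 in the anti-TGF-β combination against anti-PD-1 FcS (1 gene). DESeq2 called 1 of the 8 genes, Ccl7, in 2 contrasts of the anti-TGF-β combination, those with the isotype control and with anti-PD-1 FcS, and none in the other 12. Leaving out 1 mouse changed this in the anti-TGF-β combination. Without library 53 edgeR called Ccl7 against the isotype control, where it called 13.4% of all genes, and Ccl2 and Ccl7 against anti-PD-1 FcS, where it called 11.6%. Without control library 63 it called Ccl7 against the controls, beside 4.88% of all genes. Over the whole table, unadjusted p was under 0.05 for 3048, 2445 and 2972 genes in the WT, FcD and anti-TGF-β combinations relative to the controls, where DESeq2 called 0, 14 and 137, and for 2534, 1583 and 2521 relative to anti-PD-1 FcS, where DESeq2 called 0, 0 and 78. The counts below therefore use unadjusted p under 0.05. With all mice included, all such differences of the 8 genes were toward higher levels. Leaving out a mouse gave exceptions. In the interaction of WT with anti-PD-1 FcS, the 1 gene that passed without library 55 was lower, as was the 1 without library 67. Of the 4 that passed in the WT combination against anti-PD-1 FcS without library 55, 3 were higher. The p-values measure the spread between mice that were labelled as separate samples. All 7 contrasts with the isotype control share its 5 mice, and the 3 contrasts of combinations with anti-PD-1 FcS share those 5 mice, so they are not independent.

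The WT combination had 4 of the 8 genes below this p relative to the isotype control (Ccl2, Ccl7, Ccl8 and Csf2rb), where 13.2% of all genes tested were higher by this rule. The same 4 passed in the FcD combination, where 10.7% of all genes did. Ccl2, Ccl7, Ccl12 and Ccr1 passed in the anti-TGF-β combination, where the background was 8.49%. The median log2 fold change of the 8 genes was 0.45, 0.38 and 0.41 in these 3 groups, beside medians over all genes of 0.01, 0.00 and 0.02. The median of the anti-TGF-β combination was 0.26 without library 53. The count and median of the WT combination changed without library 77: 2 of the 8 genes (Ccl2 and Ccl7) were below this p, the median was 0.17, and the background was 2.81%. The count of the WT combination was also 2 without control library 78 (background 10.8%), and that of the anti-TGF-β combination was 2 without library 57 (6.59%). All 5 treated mice lay above all 5 control mice for 1 gene in the WT combination (1.35% of all genes), 2 in the FcD combination (1.96%) and 2 in the anti-TGF-β combination (1.73%).

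Ccl2, the principal Ccr2 ligand, had 290, 285, 229, 279 and 208 CPM in the 5 isotype control tumors. It had 367, 444, 325, 319 and 222 CPM in the WT combination. In the FcD combination the values were 350.1, 322, 325, 335 and 368 CPM, and in the anti-TGF-β combination 369, 387, 405, 307 and 362 CPM. All tumors of the FcD and anti-TGF-β combinations lay above all controls, and library 77 was the 1 tumor of the WT combination that did not. The log2 fold change was 0.38 ± 0.17 (SE) in the WT combination, with an unadjusted p of 0.0364 and an adjusted p of 0.215 (edgeR). It was 0.40 ± 0.17 in the FcD combination (edgeR unadjusted p = 0.028, adjusted p = 0.266). The anti-TGF-β combination had 0.50 ± 0.17 (edgeR unadjusted p = 0.00636, adjusted p = 0.151). In the 4 single-antibody groups Ccl2 ranged from 160 to 383 CPM, and every one of these groups overlapped the controls.

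Ccl7, which binds Ccr2 and Ccr1, was the 1 gene of the 8 with all treated tumors above all controls in each of the 3 combinations. The control tumors had 71.2, 55.9, 62.2, 63.3 and 56.0 CPM. The WT combination had 83.9, 100.2, 92.0, 78.0 and 94.6 CPM. The FcD combination had 90.9, 77.6, 83.0, 98.3 and 110.2 CPM. None of these 10 tumors overlapped the controls, and neither did those of the anti-TGF-β combination, at 122.6, 124.9, 116.5, 87.5 and 88.6 CPM. Its log2 fold change was 0.54 ± 0.18 in the WT combination (edgeR unadjusted p = 0.0056, adjusted p = 0.159) and 0.58 ± 0.18 in the FcD combination (edgeR unadjusted p = 0.00334, adjusted p = 0.225). The value of the anti-TGF-β combination, 0.81 ± 0.18, had the smallest p of any of the 8 genes (edgeR unadjusted p = 9.48e-05, adjusted p = 0.106). The log2 differences of the 3 combinations were 0.54, 0.41 and 0.97 in libraries 41 to 60, compared with 0.54, 0.78 and 0.68 in libraries 61 to 80.

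Anti-TGF-β alone was the 1 single antibody with any of the 8 genes at an unadjusted p under 0.05, and there were 2, Ccl7 and Ccl12, against a background of 1.77% of all genes and 0 calls after adjustment. Ccl7 had 72.1, 138.8, 80.5, 93.7 and 86.5 CPM, all above the controls, which was so for 0.102% of all genes. Its log2 fold change was 0.61 ± 0.18 (edgeR unadjusted p = 0.00199, adjusted p = 1.00), and 0.43 without library 48, which held the highest value. No member of the set passed with anti-GARP:TGF-β1 WT (0.583% of all genes higher at unadjusted p under 0.05), anti-GARP:TGF-β1 FcD (0.264%) or anti-PD-1 FcS (0.603%). In these 3 groups 0 genes of the 8 had all 5 mice above the controls, beside 0.156%, 0.122% and 0.108% of all genes, and the log2 fold changes lay between -0.33 and 0.57 with both extremes from Ccl8, where the -0.33 of FcD was -0.0042 without control library 46 and the 0.57 of WT was 0.15 without library 56. Other left-out mice moved Ccl8 outward, to -0.74 in FcD without library 41 and 0.89 in WT without control library 46. With anti-PD-1 FcS its 0.28 became -0.61 without library 52. Over all genes, edgeR called 0 in these 4 single-antibody contrasts. For WT, FcD, anti-TGF-β and finally anti-PD-1 FcS, the unadjusted p was under 0.05 for 143, 70, 342 and 141 genes, and DESeq2 called 1, 0, 1 and 1.

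**Figure D2:**
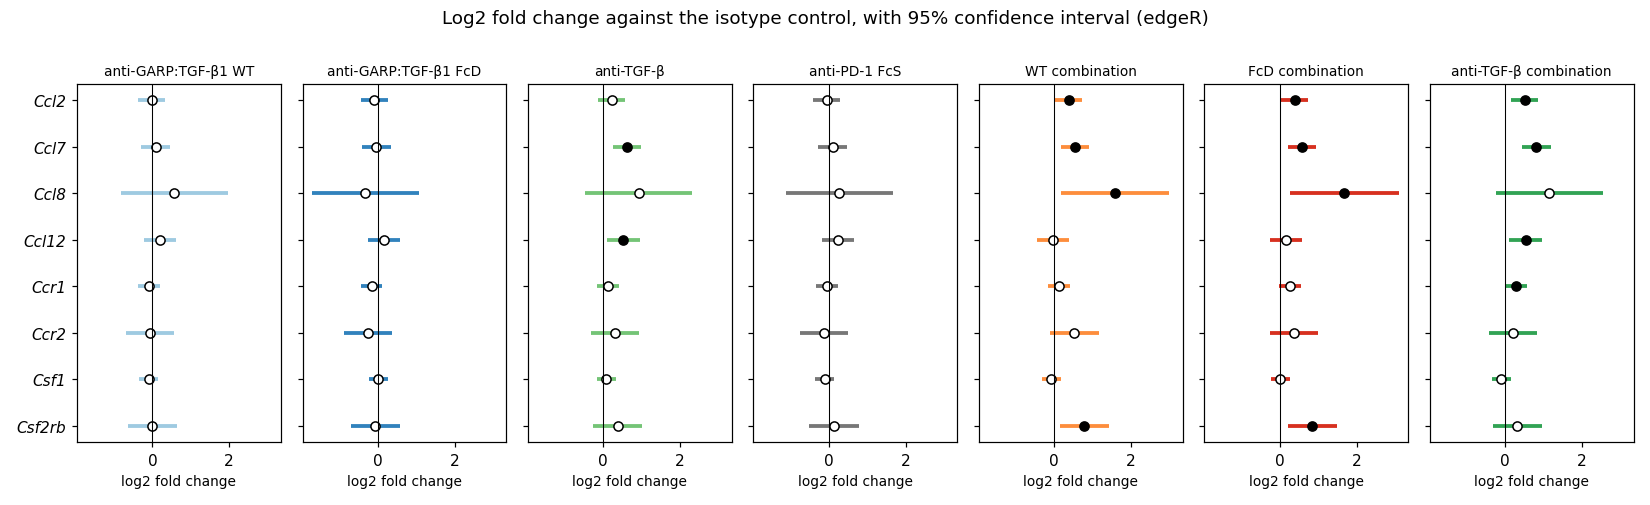
Log2 fold change of the 8 genes against the isotype control in each of the 7 other groups (points) with 95% confidence intervals (lines), from edgeR; filled points have an unadjusted p under 0.05, and none passed after adjustment. The 3 groups on the right are the combinations, where Ccl2 and Ccl7 are filled in each, while Ccl8 has the widest intervals and Csf1 stays near 0.

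Ccl12, a mouse ligand of Ccr2, had its highest group means with the anti-TGF-β combination (70.3 ± 13.6 CPM, SD, n = 5) and anti-TGF-β alone (69.9 ± 6.42). The controls had 40.5, 45.3, 50.5, 45.6 and 61.2 CPM. With anti-TGF-β alone the values were 72.3, 60.7, 69.4, 78.4 and 68.6 CPM, and with the anti-TGF-β combination 65.9, 92.1, 72.6, 64.6 and 56.2 CPM, so that 4 of 5 tumors in each lay above all controls. The log2 fold changes were 0.52 ± 0.21 (edgeR unadjusted p = 0.0167, adjusted p = 1.00) and 0.53 ± 0.21 (edgeR unadjusted p = 0.0151, adjusted p = 0.175). The WT combination had 49.7, 69.7, 47.8, 39.2 and 31.4 CPM and the FcD combination 46.0, 70.9, 47.0, 45.9 and 61.9 CPM. Both ranges overlapped the controls, with log2 fold changes of -0.03 (95% confidence interval -0.45 to 0.39) and 0.16 (-0.26 to 0.58).

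Ccl8, which in mice is known as a ligand of Ccr8, had the highest fold changes of the set and the widest errors. Its control values were 155.6, 140.6, 82.9, 20.7 and 33.8 CPM. The WT combination had 299, 218, 304, 103.5 and 370.3 CPM and the FcD combination 471, 122.8, 297.5, 297.0 and 204 CPM. In each of these groups 4 of 5 tumors lay above all controls. The log2 fold change was 1.58 ± 0.70 in the WT combination (edgeR unadjusted p = 0.0299, adjusted p = 0.202) and 1.68 ± 0.70 in the FcD combination (edgeR unadjusted p = 0.0215, adjusted p = 0.256). The anti-TGF-β combination ran from 34.3 to 547 CPM with a median of 111 and gave 1.15 ± 0.69 (edgeR unadjusted p = 0.104), and 0.28 without library 53, its highest tumor. In the WT combination the value without library 77 was 1.41 (edgeR unadjusted p = 0.0581). With anti-TGF-β alone it was 0.92 with all tumors and 0.00 without library 48.

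Ccl8 also differed between the library parts, and was the 1 gene of the 8 that did after adjustment. With group in the model, libraries 61 to 80 were lower by a log2 difference of -1.37 ± 0.28, an adjusted p of 0.00442 (edgeR), where 1.68% of all genes were called in either direction. The 2 parts had means of 216 and 105 CPM, and 7 of the 8 groups were lower in libraries 61 to 80, the WT combination being the exception. The adjusted p of the other 7 genes in this contrast lay between 0.496 and 0.961. The comparison with controls was therefore repeated within parts. In libraries 41 to 60 the Ccl8 log2 difference from the controls was 0.79 in the WT combination and 0.80 in the FcD combination, and in libraries 61 to 80 it was 2.54 and 2.66. With the part as a covariate the log2 fold changes were 1.95 and 1.74, and the adjusted p was 0.151 and 0.179 (edgeR). Each within-part value rests on 2 or 3 mice a group. The part difference of Ccl8 coincided with that of Ddx3y and Xist, so the library number and whatever underlies those genes cannot be told apart. The cause was not tested.

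**Figure D3:**
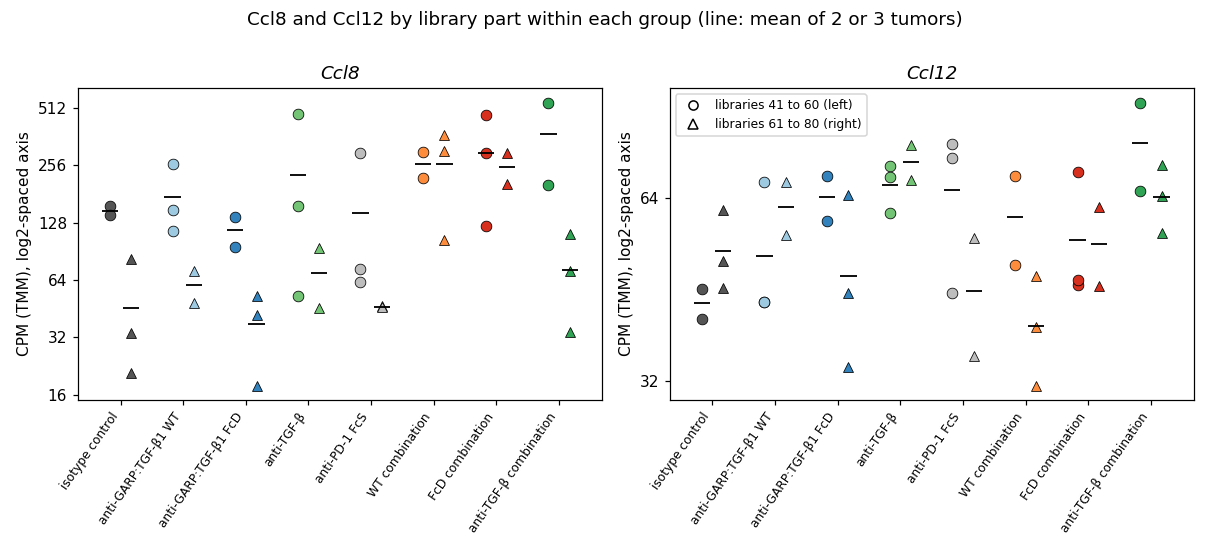
TMM-scaled CPM of Ccl8 and Ccl12 on log2-spaced axes, with libraries 41 to 60 as circles on the left and libraries 61 to 80 as triangles on the right of each group; lines are means of 2 or 3 tumors. The Ccl8 triangles lie lower on average in 7 groups, and in the WT combination the 2 parts are level.

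The receptor genes come next. Ccr1, a receptor of Ccl7 and other inflammatory chemokines, had control values of 52.7, 68.5, 64.2, 56.6 and 74.3 CPM. It had 87.9, 89.9, 66.6, 70.2 and 71.6 CPM in the anti-TGF-β combination, where 2 of 5 tumors lay above all controls. The log2 fold change was 0.29 ± 0.14 (edgeR unadjusted p = 0.0447, adjusted p = 0.238), with 0.56 in libraries 41 to 60 and 0.10 in libraries 61 to 80. In the other 6 groups the Ccr1 log2 fold change was between -0.17 and 0.26.

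Ccr2, the monocyte homing receptor, had 81.6, 141, 96.6, 117.5 and 121.0 CPM in the controls. The WT combination had 79.3, 124.5, 132, 101.1 and 363 CPM, and the last value is library 77, while the other 4 overlapped the controls. None of the 7 contrasts with the isotype control had a Ccr2 p under 0.05, and the log2 fold changes ran from -0.25 to 0.52. The highest was that of the WT combination and was -0.03 without library 77. With anti-TGF-β alone it was 0.30, and -0.01 without library 48. In the FcD combination the values were 129, 110.8, 169.8, 139.3 and 172 CPM, with 2 tumors above all controls.

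Csf1, the macrophage survival factor, had the lowest coefficient of variation of the 8 genes. Its group means lay between 276 and 314 CPM, and its log2 fold changes against the isotype control ran from -0.11 to 0.07 with unadjusted p from 0.364 to 0.932 (edgeR). Standard errors of 0.12 set the precision, and the widest 95% confidence limits over the 7 contrasts were -0.36 and 0.32. Library 77 had the lowest Csf1 level of all 40 tumors at 152.9 CPM, while the other 4 tumors of the WT combination had 279 to 326 CPM.

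Csf2rb, the common β chain, had 36.9, 40.5, 37.8, 33.0 and 47.2 CPM in the controls. The FcD combination had 105.3, 41.7, 60.4, 81.4 and 63.8 CPM, and 4 of its 5 tumors lay above all controls. Its log2 fold change was 0.85 ± 0.32 (edgeR unadjusted p = 0.0108, adjusted p = 0.240), with 0.73 in libraries 41 to 60 and 0.89 in libraries 61 to 80. The WT combination had 47.9, 35.0, 59.5, 44.7 and 149 CPM, and its log2 fold change of 0.78 ± 0.32 (edgeR unadjusted p = 0.0184, adjusted p = 0.177) was 0.26 without library 77, with an adjusted p of 0.835. When Csf2rb and Csf2rb2 counts were summed the 2 combinations had 0.91 and 0.94. In the anti-TGF-β combination the log2 fold change was 0.32 ± 0.32, and 0.14 without library 53. With anti-TGF-β alone it was 0.38 ± 0.32, and it turned to -0.12 without library 48, which had 109.5 CPM where the other 4 tumors had 28.0 to 44.4.

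The combinations were also set against anti-PD-1 FcS alone, which asks what the second antibody adds. Unadjusted p was under 0.05 for 4 genes in the WT combination (Ccl2, Ccl7, Ccr2 and Csf2rb), where 11.2% of all genes were higher by this rule. There were 4 in the FcD combination (Ccl2, Ccl7, Ccr1 and Csf2rb, background 6.46%) and 3 in the anti-TGF-β combination (Ccl2, Ccl7 and Ccr1, background 7%). Without library 77 the WT combination had 3 genes below this p beside 2.15% of all genes, with Ccr2 and Csf2rb no longer among them and Csf1 added at a log2 fold change of 0.19 (edgeR unadjusted p = 0.0329, adjusted p = 0.818), and the median of the 8 genes went from 0.44 to 0.16. Its count was 1 without library 47, 54 or 67, where the background was 6.66%, 6.74% and 9.41%. The count in the FcD combination was 1 without library 47 (5.09%) and 2 without library 44 or 54 (3.34% and 3.32%). The anti-PD-1 FcS tumors had 160, 288, 190.4, 287 and 319 CPM of Ccl2. All 5 tumors of the FcD combination lay above them, the 1 such case among the 8 genes (0.474% of all genes in that contrast), and there were 0 in the WT combination (0.251%) and 0 in the anti-TGF-β combination (0.732%).

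The log2 fold change of Ccl2 over anti-PD-1 FcS was 0.43 ± 0.17 in the WT combination (edgeR unadjusted p = 0.0178, adjusted p = 0.240). It was 0.45 ± 0.17 in the FcD combination (edgeR unadjusted p = 0.0134, adjusted p = 0.458) and 0.56 ± 0.17 in the anti-TGF-β combination (edgeR unadjusted p = 0.00281, adjusted p = 0.169). The Ccl2 difference was unequal between the parts, at 0.97, 0.69 and 0.87 in libraries 41 to 60 and -0.09, 0.21 and 0.23 in libraries 61 to 80. Ccl7 had 67.1, 91.9, 68.3, 41.8 and 60.7 CPM with anti-PD-1 FcS, and log2 fold changes of 0.44 ± 0.18, 0.48 ± 0.18 and 0.71 ± 0.18 in the 3 combinations (edgeR unadjusted p = 0.0203, 0.0126 and 0.000428, adjusted p = 0.243, 0.458 and 0.129). The part values of Ccl7 were unequal the other way, at 0.29, 0.16 and 0.72 in libraries 41 to 60 and 0.80, 1.05 and 0.94 in libraries 61 to 80. For Ccr1 the values were 0.32 ± 0.14 in the FcD combination (edgeR unadjusted p = 0.0286, adjusted p = 0.458), or 0.21 without library 47, and 0.34 ± 0.14 in the anti-TGF-β combination (edgeR unadjusted p = 0.0186, adjusted p = 0.227).

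Over anti-PD-1 FcS, Ccr2 had 0.65 ± 0.31 and Csf2rb 0.65 ± 0.32 on the log2 scale in the WT combination (edgeR unadjusted p = 0.0444 and 0.048, adjusted p = 0.284 and 0.288). Without library 77 these were 0.10 and 0.12. The Csf2rb value of the FcD combination was 0.72 ± 0.32 (edgeR unadjusted p = 0.0294, adjusted p = 0.458), and 0.52 without library 44, its highest tumor. Ccl8 had 1.30, 1.40 and 0.87 in the 3 combinations with 95% confidence intervals of -0.10 to 2.70, -0.0030 to 2.81 and -0.52 to 2.27, and the last value was -0.0043 without library 53. Without library 52, an anti-PD-1 FcS tumor, the 3 Ccl8 values were 2.18, 2.29 and 1.76. Ccl12 lay between -0.28 and 0.29 and Csf1 between 0.01 and 0.13. The values not yet given were 0.17 for Ccr1 in the WT combination, 0.50 and 0.33 for Ccr2 in the FcD and anti-TGF-β combinations, and 0.18 for Csf2rb in the latter. Without library 47 the Ccr1 value was 0.065 and the Ccr2 values 0.33 and 0.16, and without library 53 the Csf2rb value was 0.0026.

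Interaction terms tested whether a combination differed from the sum of its antibodies on the log2 scale. For FcD with anti-PD-1 FcS, 2 genes had an unadjusted p under 0.05, against 2.45% of all genes higher by this rule: Ccl2 at 0.55 ± 0.24 (edgeR unadjusted p = 0.032, adjusted p = 0.787) and Ccr1 at 0.48 ± 0.20 (edgeR unadjusted p = 0.019, adjusted p = 0.787). This count was 0 without library 47 or 80 (2.57% and 2.33% of all genes), 1 without library 46, 54, 74 or 75 (1.5% to 2.45%), and 4 without library 41, 50 or 52 (3.42% to 6.99%). For WT with anti-PD-1 FcS there were 0 (4.3% of all genes), with terms between -0.47 (Ccl12) and 0.73 (Ccl8), the latter 1.61 without library 52. Without library 77 there were 2, Ccl2 at 0.57 and Csf1 at 0.28 (edgeR unadjusted p = 0.021 and 0.0183, adjusted p = 0.698 for both), beside 2.16% of all genes, while Ccr2 and Csf2rb went from 0.71 and 0.65 to 0.15 and 0.12. There were also 2 without library 56 (2.9%). For anti-TGF-β with anti-PD-1 FcS there were also 0 (0.752%), and the median term of the 8 genes was -0.01, or 0.32 without library 48. Ccl12 had the lowest of the 8 terms in each of the 3 interactions, at -0.47, -0.25 and -0.24, with unadjusted p of 0.119, 0.410 and 0.424 (edgeR). edgeR called 0 genes of the whole table in these 3 contrasts, while the unadjusted p was under 0.05 for 1291, 663 and 340 in the order WT, FcD and anti-TGF-β, and DESeq2 called 1, 0 and 2.

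The FcD and WT combinations differ in whether the anti-GARP:TGF-β1 antibody can bind Fcγ receptors. Between them, 0 of the 8 genes passed an unadjusted p of 0.05 (edgeR), while 0.813% of all genes were higher in the FcD combination by this rule. In either direction 192 genes of the table did, and DESeq2 called 0 after adjustment. The log2 difference of FcD minus WT was 0.02 for Ccl2 (95% confidence interval -0.33 to 0.37), 0.04 for Ccl7 (-0.33 to 0.41), 0.10 for Ccl8 (-1.27 to 1.48) and 0.19 for Ccl12 (-0.23 to 0.61). It was 0.14 for Ccr1 (-0.14 to 0.42), -0.15 for Ccr2 (-0.78 to 0.48), 0.10 for Csf1 (-0.15 to 0.34) and 0.07 for Csf2rb (-0.56 to 0.70). Without library 77 the differences were 0.40 for Ccr2 and 0.59 for Csf2rb, and Csf2rb then had an unadjusted p of 0.0401 and an adjusted p of 0.911 (edgeR), beside 3.87% of all genes higher. These intervals do not show that the forms act alike, least so for Ccl8.

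Of 16 other chemokine and chemokine receptor genes, some outside the CC class, 8 in the WT combination, 11 in the FcD combination and 6 in the anti-TGF-β combination had an unadjusted p under 0.05 toward higher levels against the isotype control, and 0 toward lower ones, where 13.2%, 10.7% and 8.49% of all genes were higher by this rule. Their median log2 fold changes were 0.89, 1.12 and 0.68. Cx3cl1, a membrane-bound chemokine of endothelium, had 1.37 ± 0.39 in the WT combination and 1.70 ± 0.39 in the FcD combination (edgeR unadjusted p = 9.93e-05 and adjusted p = 0.225 in the latter). The inflammatory chemokines Ccl5, Ccl3 and Ccl4 had 1.36, 1.18 and 1.27 in the WT combination, 1.41, 1.49 and 1.21 in the FcD combination and 0.71, 1.12 and 1.15 in the anti-TGF-β combination. Without library 77 the WT combination had 5 of the 16 toward higher (2.81% of all genes) and 1 toward lower levels and a median of 0.52, with Cx3cl1 at 0.91 and Ccl5, Ccl3 and Ccl4 at 0.84, 0.91 and 1.03. Anti-TGF-β alone had 5 of the 16 at an unadjusted p under 0.05 beside 1.77% of all genes, and 1 beside 0.511% without library 48, and the other 3 antibodies alone had 0.

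Of 11 genes of the colony-stimulating factor family, 7 had enough counts, since Csf3, Il3, Il5 and Il5ra did not. In the WT combination 5 had an unadjusted p under 0.05 toward higher levels, in the FcD combination 3 and in the anti-TGF-β combination 0, beside 13.2%, 10.7% and 8.49% of all genes. Csf2rb2, the paralog of Csf2rb, had log2 fold changes of 1.13 and 1.10 in the WT and FcD combinations, Csf2ra, the α chain for the granulocyte-macrophage factor, had 0.82 and 0.72, Csf3r had 1.40 and 1.15, and Il3ra had 0.68 and 0.42. Without library 77 the WT combination had 0 of the 7 below this p (2.81% of all genes), and Csf2rb2, Csf2ra, Csf3r and Il3ra had 0.59, 0.30, 0.48 and 0.01. Of 12 known inducers of these chemokines and their factors, 4, 6 and 5 had an unadjusted p under 0.05 toward higher levels in the 3 combinations, against the same shares of all genes. Ifng had 1.36, 1.48 and 1.46 in these groups, Tnf 0.93, 1.16 and 0.69, and Il1a 0.71, 1.16 and 0.12. Without library 77, 3 of the 12 passed in the WT combination (background 2.81%), with Ifng at 1.03, Tnf at 0.71 and Il1a at 0.61. Nfkb2 was the 1 inducer toward lower levels, at -0.42 and -0.30 in the WT and FcD combinations (edgeR adjusted p = 0.159 and 0.263).

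Marker genes of leukocyte types were summed in each tumor. The sums are transcript levels and need not follow 1 cell type. Library 47 (anti-PD-1 FcS) had the second highest monocyte sum (745 CPM) but the lowest Ccr2 level (53.7 CPM) and pan-leukocyte sum (414 CPM) of all tumors. The summed level of 12 monocyte genes was 261 to 406 CPM in the controls, 344 to 652 in the WT combination, 375 to 662 in the FcD combination and 352 to 606 in the anti-TGF-β combination, and 4, 6 and 5 of the 12 had an unadjusted p under 0.05 toward higher levels, where 13.2%, 10.7% and 8.49% of all genes did. Of the monocyte genes, Chil3 had log2 fold changes of 1.66 in the WT and 2.52 in the anti-TGF-β combination. In the FcD combination it was at 3.03-fold, on the linear scale, the control level. Chil3 was not particular to the combinations: without library 48 it had 1.74 with anti-TGF-β alone (edgeR unadjusted p = 0.0059). Without library 77 the WT combination had 0.14 over anti-PD-1 FcS (edgeR unadjusted p = 0.80). Of the 12 genes, 3 passed with anti-TGF-β alone (1.77% of all genes), 1 without library 48 (0.511%), and 1 with anti-PD-1 FcS alone (0.603%). In the order of the 3 combinations, Ly6c2 had log2 fold changes of 1.06, 0.64 and 0.94, and Plac8 0.27, 0.20 and 0.52. The sum of 10 macrophage genes was 1878 to 2920 CPM in the controls, 2015 to 11865 in the WT combination, 2742 to 4602 in the FcD combination and 2773 to 3757 in the anti-TGF-β combination, with 8, 3 and 1 of 10 genes below that p, the last being near the 8.49% of all genes. Library 77 alone gave the upper end of the WT combination: without it the macrophage sum was 2015 to 3702 CPM with 0 of 10 genes below that p, and the monocyte sum 344 to 456 CPM with 2 of 12, beside 2.81% of all genes. The 5 pan-leukocyte genes summed to 659 to 765 CPM in the controls and to 695 to 3218, 677 to 1400 and 768 to 1154 in the 3 combinations, the first being 695 to 1169 without library 77. Apart from 1 monocyte gene in the controls, no monocyte, macrophage or pan-leukocyte gene had a group mean under 0.5 CPM. The part of these cells in the chemokine and receptor levels was not tested.

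Neutrophil genes summed to 6.03 to 47.0 CPM in the controls, and to 19.9 to 43.8, 20.1 to 113.8 and 15.3 to 107.6 CPM in the 3 combinations, with 1, 3 and 3 of 5 tested genes below that p (Ly6g and Retnlg were not tested), where the shares of all genes were 13.2%, 10.7% and 8.49%. In anti-TGF-β tumors the sum ran from 13.1 to 197 CPM with 4 of 5 genes (1.77% of all genes), and from 13.1 to 31.8 CPM with 0 of 5 (0.511%) without library 48. T cell, dendritic cell, fibroblast and endothelial lists had 1, 2, 1 and 4 of their 6, 6, 8 and 5 genes at that threshold in the WT combination, 1, 4, 3 and 1 in the FcD combination and 1, 0, 0 and 1 in the anti-TGF-β combination. In the WT combination all 4 of these lists had 0 without library 77 (2.81% of all genes). Beside the shares of all genes, a count of 1 gene in such a list says nothing about the list. All 5 epithelial and all 4 adipocyte genes passed it in the FcD combination, where library 71 had sums of 500.1 and 188 CPM. The epithelial sum also separated the library parts, with at most 18.2 CPM in libraries 41 to 60 and at least 19.96 CPM in libraries 61 to 80. Muscle genes were at 0.629 to 12.9 CPM in all tumors but library 52 (anti-PD-1 FcS), at 139, and epidermal genes summed to 1.97 to 28.7 CPM. Their part in the results was not tested either.

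**Figure D4:**
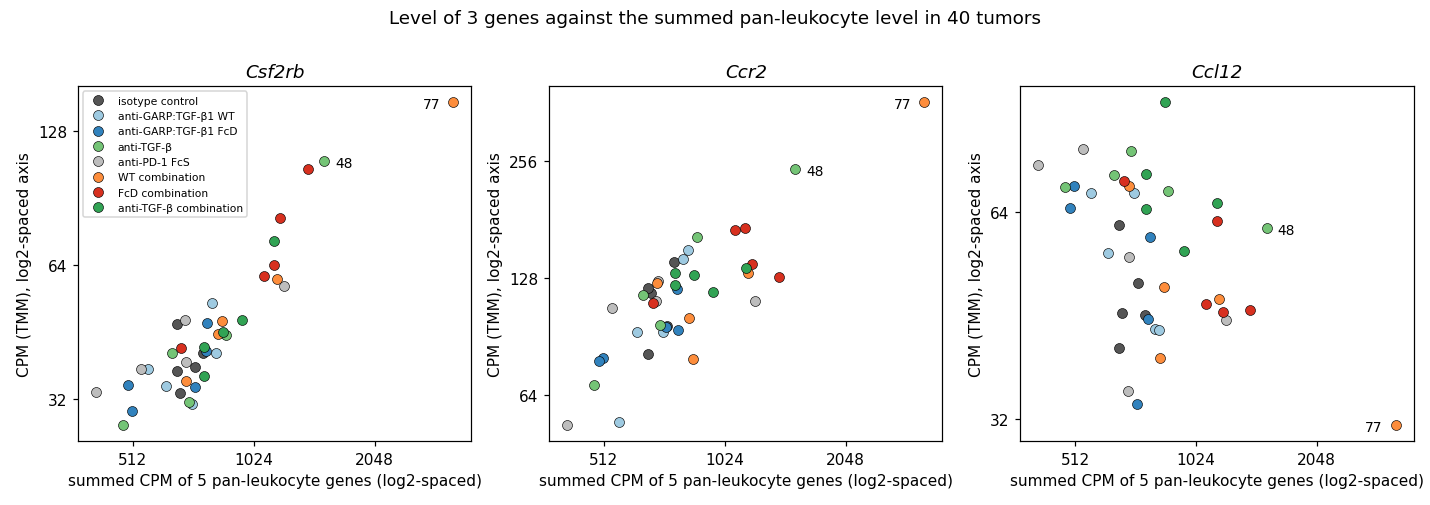
TMM-scaled CPM of Csf2rb, Ccr2 and Ccl12 against the summed CPM of 5 pan-leukocyte genes in 40 tumors, both axes log2-spaced, colored by group. Csf2rb and Ccr2 go up with the sum (r = 0.91 and 0.82 on the log2 scale), Ccl12 goes down (r = -0.45), and libraries 77 and 48 sit at the right end.

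Over the 40 tumors, which share the groups, the library parts and the 2 libraries with the highest pan-leukocyte sums, the genes divided by how closely they followed this sum. Pearson's r of log2 levels was 0.91 for Csf2rb, 0.82 for Ccr2, 0.65 for Ccl8, 0.61 for Ccr1, 0.51 for Ccl7, 0.36 for Ccl2, -0.39 for Csf1 and -0.45 for Ccl12. Without libraries 77 and 48 these were 0.86, 0.70, 0.63, 0.61, 0.49, 0.57, 0.08 and -0.36, so the Csf1 value rested on those tumors. Within groups, after subtracting group means, Csf2rb had 0.90, Ccr2 0.80 and Ccl2 0.06.

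Among the 8 genes, Ccr2 and Csf2rb had the highest pairwise r (0.74), followed by Ccl2 and Ccl7 (0.68) and Ccl7 and Ccl8 (0.66). Without the 2 tumors farthest from the median of the first gene these were 0.64, 0.69 and 0.62, which changes their order, and within groups they were 0.70, 0.40 and 0.64. Ccl8 and Ccl12, whose upstream sequences are printed above, had -0.11, and Ccl12 with Csf2rb had -0.38. Of all genes tested, those most like Ccl2 were Lap3 (0.80), Apol9a (0.79) and Agpat9 (0.77). Most like Ccl7 were Hdc (0.83), Ccl4 (0.82) and Prdx1 (0.80), and most like Ccl8 were Mir22hg (0.92), Clec4d (0.91) and Pde1b (0.89). Ccl12 came closest to Uchl3 (0.79), Ss18l2 (0.78) and Bccip (0.77). Ccr1 was nearest to Msr1 (0.82), Snx10 (0.79) and Ms4a6d (0.78), and Ccr2 to Ms4a6b (0.93), Ms4a6c (0.93) and Klra2 (0.90). Csf2rb was nearest to Csf2rb2 (0.95), Tbc1d8 (0.94) and Arhgef6 (0.94). Csf1 was nearest to Pdss1 (0.80), Steap2 (0.79) and Unc13c (0.78), which dropped to 0.54, 0.55 and 0.61 without libraries 77 and 63.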

How the data were processed

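RNA of 40 CT26 tumors was sequenced from stranded mRNA libraries. Per the labels, the authors aligned reads to GRCm38 with STAR 2.5.3a and used SAMtools 1.6 and HTSeq 0.9.1, and they deposited raw counts per gene. The annotation release, the strand setting and the handling of reads shared by paralogs are not given in the sources used here. All columns of per-sample values were used (0 left out).

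Counts were scaled by TMM, filtered with filterByExpr (14760 of 54087 genes kept) and tested in 1 model of all 40 mice with the robust quasi-likelihood test of edgeR 4.0.16 (R 4.3.3, limma 3.58.1), 2-sided, with Benjamini-Hochberg adjustment over all genes tested. Standard errors were derived from each log2 fold change and its F statistic. CPM are TMM-scaled, and log2 CPM used a prior count of 2. DESeq2 1.42.0 (Wald test), its size factors, no filter, only the groups compared, the library part as a covariate, leaving out each mouse, and summing Csf2rb with Csf2rb2 were tried as alternatives. The edgeR step was tested on simulated data. Positions and exon lengths come from a GENCODE annotation of GRCm38.

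The 8 genes and all lists were chosen with earlier results of these data known. The 8 genes are always named. Fold change, error and p are given one by one where an unadjusted p was under 0.05, and otherwise mostly as ranges or intervals. From each list up to 4 genes with the smallest unadjusted p in the combinations were taken, of which the lists nearest to the 8 genes are printed (1 gene is not reported here), and per gene the 3 with the highest Pearson r over the 40 tumors. Within each group, counts of all pairs of mice differed by more than sampling noise (chi-square per degree of freedom at least 5.44 over 80 pairs).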

Additional observations from a re-analysis of the deposited data

Results flagged for a closer look

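In 4 of 64 combinations of gene and group, 1 mouse stood apart from the other 4, with a gap to its nearest neighbour over 0.71 of the group's range in log2 CPM. Chance flags about 1 in 20 groups. Ccl8 was highest in library 52 of anti-PD-1 FcS at 298 CPM, with the other 4 mice between 46.2 and 72.8 CPM. Ccr1 was highest in library 48 of anti-TGF-β at 101.3 CPM, where the next mouse had 64.5. Ccr2 was lowest in library 47 of anti-PD-1 FcS at 53.7 CPM, below the 107.4 to 126 CPM of the others. Csf1 was lowest in library 77 of the WT combination at 152.9 CPM, below 279 to 326 CPM in the others. Libraries 48 and 77 also had the highest pan-leukocyte sums of the 40 tumors, library 52 the highest muscle sum, and library 47 the lowest pan-leukocyte sum (414 CPM), although its sum of 12 monocyte genes (745 CPM) was second only to that of library 48 (1123 CPM). Their part in these values was not tested.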

How the results depend on the processing

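The 27 log2 fold changes of single genes with an unadjusted p under 0.05 kept their direction under each alternative tried (456 values), whereas 35 of all 112 log2 fold changes of the 8 genes in the 14 contrasts changed sign when some mouse was left out, and DESeq2 size factors changed 1 count of the 8 genes, from 2 to 3 with an unadjusted p under 0.05 in the interaction of FcD with anti-PD-1 FcS. DESeq2 called 1 of the 8 genes, Ccl7, in the anti-TGF-β combination against the isotype control and 1, again Ccl7, against anti-PD-1 FcS (adjusted p = 0.0195 and 0.0377), beside 0.438% and 0.249% of all genes. With only the compared groups in the edgeR model, Ccl7 was the 1 gene called in the FcD combination and the 1 called in the anti-TGF-β combination (adjusted p = 0.0456 and 0.041, beside 1.3% and 0.0593% of all genes), 2 genes instead of 4 had an unadjusted p under 0.05 in the WT combination against anti-PD-1 FcS (3.54% of all genes higher), and 5 instead of 2 in the interaction of FcD with anti-PD-1 FcS (5.97%). Without a filter, 2 instead of 4 were below that p in the WT combination against anti-PD-1 FcS (7.12%), and with the library part as a covariate 4 instead of 2 in the FcD interaction (2.7%). The cause was not tested.

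Leaving out libraries 48 and 77 together was chosen after seeing the data, as was the contrast of the library parts. Without them the median log2 fold change of the 8 genes was 0.032 with anti-TGF-β and 0.17 in the WT combination against the isotype control, 0.15 in the WT combination against anti-PD-1 FcS, and 0.32 for the anti-TGF-β interaction. In that setting edgeR called 1 gene in the FcD combination (Csf2rb, adjusted p = 0.0313) and 1 in the anti-TGF-β combination (Ccl7, adjusted p = 0.040) against the isotype control, beside 3.72% and 0.358% of all genes. Genes with an unadjusted p under 0.05 then numbered 1 between the FcD and WT combinations, and 2, 5 and 1 in the interactions of WT, FcD and anti-TGF-β with anti-PD-1 FcS, where 5.31%, 2.3%, 6.65% and 1.91% of all genes were higher by this rule.

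When each mouse was left out in turn, the number of the 8 genes called in the anti-TGF-β combination ranged from 0 to 1 against the isotype control (Ccl7 called without library 53 or without control library 63) and from 0 to 2 against anti-PD-1 FcS (Ccl2 and Ccl7 without library 53). The number with an unadjusted p under 0.05 against the isotype control ranged from 2 (without library 77 or 78) to 4 in the WT combination and from 2 (without library 57) to 5 (without library 66) in the anti-TGF-β combination. Against anti-PD-1 FcS it ranged from 1 (without library 47, 54 or 67) to 5 in the WT combination and from 1 (without library 47, and 2 without library 44 or 54) to 5 in the FcD combination, and between the FcD and WT combinations from 0 to 1 (without library 77). In the interactions this number, in either direction, ranged from 0 to 2 (without library 56 or 77, and 1 without library 55, 67, 73, 76 or 78) for WT, from 0 (without library 47 or 80, and 1 without library 46, 54, 74 or 75) to 4 (without library 41, 50 or 52) for FcD and from 0 to 1 (without library 48) for anti-TGF-β. The median log2 fold change ranged from 0.032 (without library 48) to 0.49 with anti-TGF-β, from 0.17 (without library 77) to 0.49 in the WT combination, from 0.16 (without library 77) to 0.54 in that combination against anti-PD-1 FcS, and from -0.10 to 0.32 (without library 48) for the anti-TGF-β interaction. In the anti-TGF-β combination against the isotype control it ranged from 0.26 (without library 53) to 0.47. Each of the 8 genes had at least 264 counts in every tumor, and each group had 5 mice.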
